A study of Mus musculus with 16 samples.

Results

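The 43 genes described here mark the macrophages and monocytes of the liver. They are Kupffer cell genes, genes shared by all macrophages, monocyte genes, complement C1q genes, and Fc receptors and adaptors. Genes of injury- and lipid-associated macrophages and efferocytosis receptors are also among them. Each was chosen by name and read from a probe set annotated with that symbol alone, the one with the highest mean where a gene had several. Of the 43 genes, 42 were measured, each by 1 probe set, out of 18820 genes measured this way; Ly6c2, which encodes a monocyte surface protein, had no such probe set and has no value here. The data are log2 signals of whole liver from 16 male mice aged 7 days on a mixed C57/BL6 - SV129Ola background, 1 array per mouse and 4 mice per genotype. Mice labelled TRAF2/Casp-8LPC-KO (TRAF2/Casp8 KO below) carry deletions of TRAF2 and caspase-8 driven by alfp-Cre, which acts in the parenchymal cells of the liver. Mice labelled TRAF2/Casp-8LPC-KO/RIPK3-/- (RIPK3 triple KO) add a constitutive loss of RIPK3, which macrophages share. Mice labelled TRAF2/Casp-8/IKKbetaLPC-KO (IKKβ triple KO) have IKKβ deleted in parenchymal cells beside TRAF2 and caspase-8. WT mice are littermates that have the loxP-flanked alleles and no Cre. The comparisons ask how the macrophage genes of the liver stood in each of these genotypes.

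Kupffer cells are the resident macrophages of the liver sinusoids. They are seeded before birth, clear particles, dying cells and old red cells from the portal blood, and carry surface proteins such as CLEC4F, VSIG4 and TIMD4 that few other cells have. Monocytes leave the bone marrow through the chemokine receptor CCR2, enter injured liver along its ligand CCL2, and can turn into macrophages there, while CX3CR1, the receptor of fractalkine (CX3CL1), marks monocytes and monocyte-derived cells and is lost by mature Kupffer cells. Livers with dying hepatocytes are known for gaining monocyte-derived macrophages, some of which express TREM2, CD9 and GPNMB. In whole liver, fewer cells of a type and less RNA per cell cannot be told apart.

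Promoters of 33 of the 43 genes were found in RefSeq (build GRCm38.p6, 250 bases before to 50 bases after the gene start). Those below are shown because Cd9, Cx3cr1 and Tlr2 carry the calls of the comparisons, and because Marco and Vsig4, both Kupffer cell genes, hold the PU box (GAGGAA on either strand), the core that the macrophage factor PU.1 binds. All 5 genes lie on the minus strand, and the sequences read 5′ to 3′ along the gene. Capitals mark the PU box in Marco and Vsig4 and matches to the κB decamer in Tlr2.
Cd9, chr6:125494711-125495010: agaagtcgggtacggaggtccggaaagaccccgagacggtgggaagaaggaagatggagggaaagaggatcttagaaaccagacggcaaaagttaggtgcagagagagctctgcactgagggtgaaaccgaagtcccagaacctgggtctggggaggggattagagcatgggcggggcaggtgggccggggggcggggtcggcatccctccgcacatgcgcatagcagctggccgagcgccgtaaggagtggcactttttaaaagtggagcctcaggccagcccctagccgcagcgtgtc
Cx3cr1, chr9:120068247-120068546: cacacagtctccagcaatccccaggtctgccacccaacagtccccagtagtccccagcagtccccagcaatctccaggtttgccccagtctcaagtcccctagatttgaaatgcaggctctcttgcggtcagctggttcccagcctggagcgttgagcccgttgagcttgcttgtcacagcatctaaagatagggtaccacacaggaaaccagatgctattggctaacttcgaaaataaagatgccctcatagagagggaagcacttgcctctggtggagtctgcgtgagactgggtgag
Tlr2, chr3:83841559-83841858: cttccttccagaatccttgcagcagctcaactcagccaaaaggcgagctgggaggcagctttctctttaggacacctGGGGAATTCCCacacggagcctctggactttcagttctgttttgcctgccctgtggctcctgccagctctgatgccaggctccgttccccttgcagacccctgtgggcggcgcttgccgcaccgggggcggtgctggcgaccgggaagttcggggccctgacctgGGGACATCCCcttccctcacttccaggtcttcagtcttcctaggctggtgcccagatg
Marco, chr1:120504975-120505274: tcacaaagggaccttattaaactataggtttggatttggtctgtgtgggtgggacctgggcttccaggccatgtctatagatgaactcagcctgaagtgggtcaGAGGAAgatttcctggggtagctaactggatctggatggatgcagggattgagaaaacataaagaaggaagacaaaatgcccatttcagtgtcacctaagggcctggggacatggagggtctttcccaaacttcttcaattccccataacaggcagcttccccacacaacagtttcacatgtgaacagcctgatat
Vsig4, chrX:96293389-96293688: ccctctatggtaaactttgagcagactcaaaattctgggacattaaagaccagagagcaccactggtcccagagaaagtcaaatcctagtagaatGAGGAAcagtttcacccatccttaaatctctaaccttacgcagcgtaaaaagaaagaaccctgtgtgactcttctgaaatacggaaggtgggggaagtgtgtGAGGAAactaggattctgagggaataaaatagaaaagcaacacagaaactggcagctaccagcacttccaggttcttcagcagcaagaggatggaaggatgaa

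Vsig4 held 2 PU boxes and Marco 1, and the Tlr2 promoter held κB decamers near -172 and at -8 from the gene start. Neither motif was found in the windows of Cd9 and Cx3cr1. The PU box stood in 17 of the 33 promoters (51.5%), against 28.3% of 27025 promoters of all genes. All 3 pan-macrophage promoters in the table (Aif1, Cd68 and Mrc1) held it, as did 5 of 11 Kupffer cell promoters, though not those of Clec4f and Timd4. It was in 2 of 2 C1q, 3 of 4 Fc receptor and adaptor, 2 of 6 injury-associated, 1 of 4 monocyte and 1 of 3 efferocytosis promoters. κB decamers were in 5 of 33 (15.2%: Tlr2, C1qc, Fcgr3, Fcgr4 and Lgals3), against 8.2% of all promoters. These matches are descriptions of letters in the window and not measured binding.

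The labels were checked on the targeted genes. Ripk3 lay at 4.07 to 4.40 in the arrays labelled RIPK3 triple KO, against 5.62 to 6.42 in the 12 others, and Ikbkb at 7.07 to 7.30 in those labelled IKKβ triple KO, against 7.50 to 8.06. Casp8 was lower in all 12 arrays labelled as deleted (8.50 to 9.11) than in WT (9.76 to 10.07). Traf2 went against its label: it was higher in every liver labelled as deleted, at 7.07 to 7.44 for TRAF2/Casp8 KO, 7.18 to 7.53 for RIPK3 triple KO and 6.87 to 6.92 for IKKβ triple KO, against 6.21 to 6.40 in WT, so the genotypes below are the labelled ones. Where each probe set lies relative to the deleted exons is not given in the sources used here. In the array names, each genotype had its own combination of letters with a number. If these are plate positions, which the names do not state, position and genotype cannot be told apart. The name of the array of TRAF2/Casp8 KO replicate 4 starts differently from the 15 others. Array medians lay between 4.90 and 5.05. Clec4f, Vsig4 and Timd4, which define Kupffer cells, were above the median of their array in all 16 livers. Gpnmb and Trem2 were below it on all 16, Itgax on 5, Cx3cr1 and Cd163 on 4, and Ccr2 and Cd14 on 2.

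A pair of arrays stood apart from their groups in these genes. In RIPK3 triple KO replicate 4, 35 of 42 genes were the highest of the 4 arrays of its genotype (27.8% of all genes were), with a median of 0.37 above the other 3 on the log2 scale. In WT replicate 1, 39 of 42 were the highest of the 4 WT arrays (31.0% of all genes were), with a median of 0.76. The exceptions in WT replicate 1 were Gpnmb, Cd9 and Cd63, which encodes a tetraspanin of late endosomes, and Cd63 was the lowest of the 4. Ccr2 differed most there, at 7.07 in WT replicate 1 and 4.96 to 5.07 in the other WT livers. Genes of other blood cells moved with both arrays. All 8 erythroid markers (median 1.66) and 11 of 12 neutrophil markers (median 1.27) were highest in RIPK3 triple KO replicate 4. In WT replicate 1 all 12 neutrophil markers (median 1.56) and 7 of 9 lymphocyte markers (median 1.01) were highest, and 0 of 8 erythroid and 0 of 6 hepatocyte markers were. The part of these cells in the macrophage results was not tested. The counts of the 42 genes past the threshold are given with all arrays and, where they change, without these arrays. Both arrays were singled out by these same genes. Leaving either out lowers the mean of its genotype for most of the 42, so the counts without them are not independent support.

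**Figure D1:**
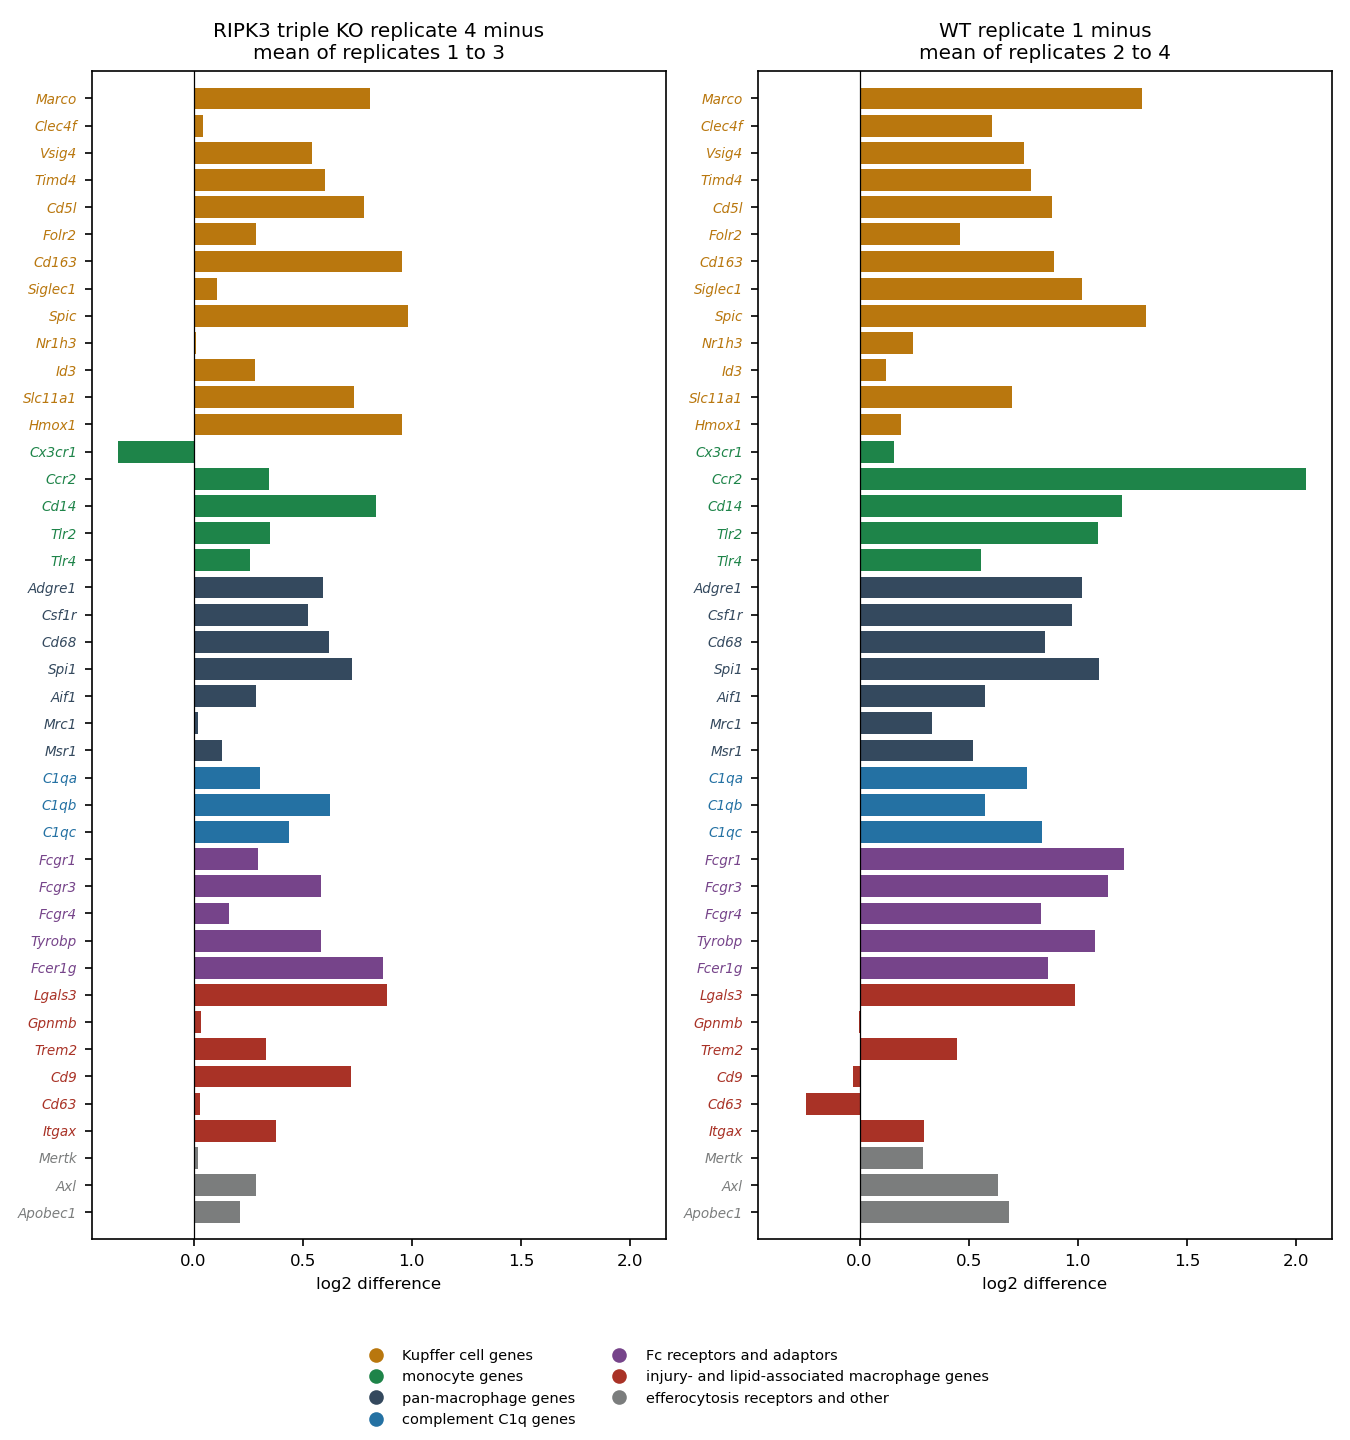
Log2 difference of 1 array from the mean of the other 3 of its genotype, for each of 42 genes; bars are coloured by gene group. The left panel is RIPK3 triple KO replicate 4 and the right panel WT replicate 1, where Ccr2 reaches 2.05 and only Gpnmb, Cd9 and Cd63 are at or below 0.

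None of the 13 Kupffer cell genes passed limma's test in any of the 6 comparisons over all 16 arrays, where 0.0372% to 3.31% of all genes passed, so that 0 of 13 is near the background. Their median difference from WT was 0.07 in TRAF2/Casp8 KO. Marco, a scavenger receptor for bacteria and particles, read 9.82, 10.30, 9.81 and 10.11 in TRAF2/Casp8 KO, 10.04, 9.95, 9.40 and 10.60 in RIPK3 triple KO, 9.63, 9.70, 9.76 and 9.82 in the IKKβ triple KO, and 10.57, 9.31, 9.17 and 9.36 in WT. The 12 KO livers all lay above WT replicates 2 to 4, and WT replicate 1 lay above all but 1 of them. Clec4f, a lectin receptor found on Kupffer cells, read 10.13, 9.92, 9.86 and 9.90 in TRAF2/Casp8 KO, 10.14, 10.07, 10.06 and 10.13 in RIPK3 triple KO, 10.18, 10.10, 10.26 and 10.05 in the IKKβ triple KO, and 10.52, 9.86, 9.95 and 9.94 in WT. Its groups overlapped, and its highest value of all 16 livers was in WT replicate 1.

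Vsig4, a complement receptor, was 9.89, 9.67, 9.73 and 9.79 in TRAF2/Casp8 KO, 9.52, 9.65, 9.71 and 10.17 in RIPK3 triple KO, 9.53, 9.53, 9.53 and 9.42 in the IKKβ triple KO, and 10.10, 9.32, 9.43 and 9.28 in WT. All 4 IKKβ triple KO livers were below all 4 TRAF2/Casp8 KO livers. Timd4, a receptor for phosphatidylserine on dying cells, was 8.05, 8.16, 7.96 and 8.08 in TRAF2/Casp8 KO, 7.96, 8.11, 8.07 and 8.65 in RIPK3 triple KO, 7.87, 8.17, 8.17 and 7.91 in the IKKβ triple KO, and 8.58, 7.78, 7.69 and 7.92 in WT. The 2 highest Timd4 values were those of RIPK3 triple KO replicate 4 and WT replicate 1. Cd5l, a secreted macrophage protein that binds lipids, was 9.70, 9.67, 9.41 and 9.83 in TRAF2/Casp8 KO, 9.27, 9.53, 9.31 and 10.15 in RIPK3 triple KO, 9.81, 9.97, 9.69 and 9.64 in the IKKβ triple KO, and 10.29, 9.42, 9.38 and 9.42 in WT, again highest in WT replicate 1.

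Among the other Kupffer cell genes, Id3 and Cd163 separated some genotypes without passing the test. Id3, a partner of helix-loop-helix factors that Kupffer cells need, was lower in TRAF2/Casp8 KO (6.56 to 7.01) than in WT (7.23 to 7.38), by -0.43 (SE 0.14, limma adjusted p = 0.165). It was lower too in RIPK3 triple KO (6.56 to 7.10), by -0.40 (adjusted p = 0.199). IKKβ triple KO (7.09 to 7.70) lay above TRAF2/Casp8 KO in all 4 livers, by 0.45 (adjusted p = 0.245). Cd163, the haptoglobin-haemoglobin receptor, was 4.85 to 5.20 in TRAF2/Casp8 KO, 5.30 to 6.39 in RIPK3 triple KO and 4.67 to 5.29 in IKKβ triple KO, against 5.25 to 6.18 in WT. RIPK3 triple KO was above TRAF2/Casp8 KO in all 4 livers, by 0.59 (SE 0.24, adjusted p = 0.425), and by 0.35 (adjusted p = 0.599) without RIPK3 triple KO replicate 4.

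Spic, the transcription factor of iron-recycling macrophages, reached 8.59 in RIPK3 triple KO replicate 4 and 8.40 in WT replicate 1 and lay between 6.98 and 7.89 in the 14 other livers. The haem oxygenase gene Hmox1 and the phagosomal metal transporter gene Slc11a1 were highest of all in RIPK3 triple KO replicate 4 (10.48 and 8.86). Nr1h3, which encodes the oxysterol receptor LXRα and is also active in hepatocytes, was 9.15 to 9.29 in RIPK3 triple KO and 8.90 to 9.01 in TRAF2/Casp8 KO, a difference of 0.27 (adjusted p = 0.351). Folr2, a folate receptor, ranged over 7.46 to 8.13 and Siglec1, a sialic-acid-binding lectin, over 7.22 to 8.47, both highest in WT replicate 1.

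Genes shared by all macrophages overlapped between genotypes in all 6 comparisons over the 16 arrays. Adgre1, which encodes F4/80, read 8.68, 9.10, 8.73 and 8.81 in TRAF2/Casp8 KO, 8.96, 8.95, 8.56 and 9.42 in RIPK3 triple KO, 8.72, 8.57, 8.69 and 8.65 in the IKKβ triple KO, and 9.39, 8.34, 8.36 and 8.41 in WT. Csf1r, the receptor of the growth factors CSF1 and IL-34 that keep macrophages alive, read 9.77, 9.87, 9.70 and 9.86 in TRAF2/Casp8 KO, 9.46, 9.61, 9.70 and 10.11 in RIPK3 triple KO, 9.75, 9.70, 9.94 and 9.83 in the IKKβ triple KO, and 10.54, 9.55, 9.58 and 9.57 in WT. For both genes WT replicate 1 was about 1 unit above the other WT livers (1.02 and 0.97), more than any pair of genotype means differed. Csf1r in TRAF2/Casp8 KO differed from WT by -0.01 with a 95% interval of -0.42 to 0.40, and by 0.24 (adjusted p = 0.428) when WT replicate 1 was left out. None of the 7 genes of this group passed with all 16 arrays: Cd68 (a lysosomal glycoprotein), Spi1 (which encodes PU.1), Aif1 (a calcium-binding protein), Mrc1 (the mannose receptor, also made by sinusoidal endothelium) and Msr1 (a scavenger receptor) had groups that overlapped in every comparison.

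**Figure D2:**
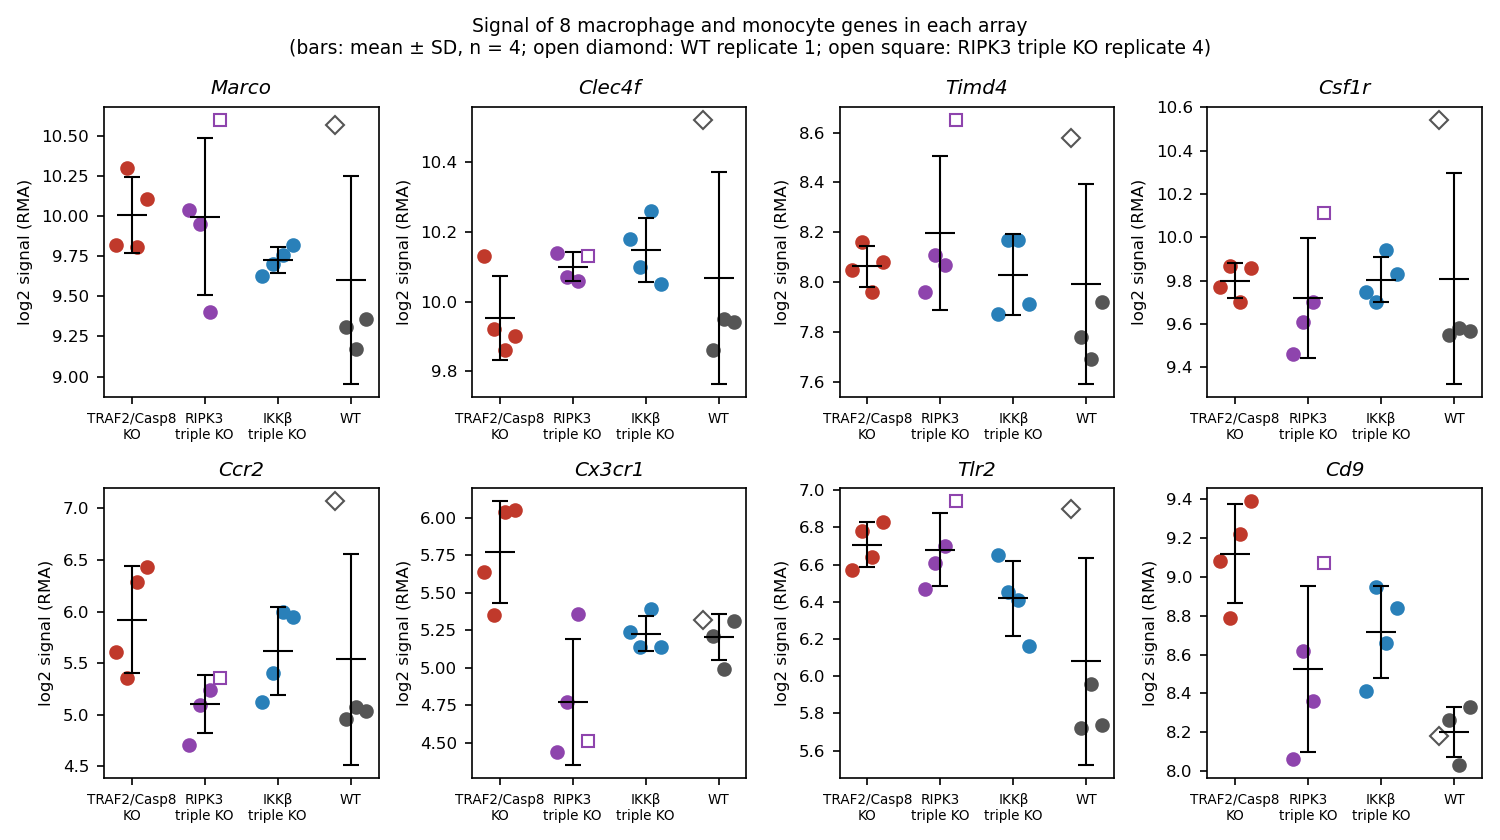
Log2 signal of 8 genes in each liver by labelled genotype, with the mean and SD of 4 livers as bars; the vertical scale differs between panels and does not start at 0. The open diamond, WT replicate 1, is above the other WT livers in every panel but that of Cd9, and the open square is RIPK3 triple KO replicate 4.

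Of the 5 monocyte genes, 4 had a higher mean in TRAF2/Casp8 KO than in WT and 0 passed, with a median difference of 0.56, and Cx3cr1 fell in RIPK3 triple KO against TRAF2/Casp8 KO. Cx3cr1, the fractalkine receptor, read 5.64, 5.35, 6.04 and 6.05 in TRAF2/Casp8 KO, 4.44, 4.77, 5.36 and 4.51 in RIPK3 triple KO, 5.24, 5.14, 5.39 and 5.14 in the IKKβ triple KO, and 5.32, 5.21, 4.99 and 5.31 in WT. All 4 TRAF2/Casp8 KO livers were above all 4 WT livers, and RIPK3 triple KO replicate 3 reached the lowest TRAF2/Casp8 KO liver. Ccr2, the monocyte receptor for CCL2, read 5.61, 5.36, 6.29 and 6.43 in TRAF2/Casp8 KO, 4.71, 5.09, 5.24 and 5.36 in RIPK3 triple KO, 5.12, 5.40, 6.0 and 5.95 in the IKKβ triple KO, and 7.07, 4.96, 5.07 and 5.04 in WT. TRAF2/Casp8 KO lay above the RIPK3 triple KO livers, which it touched at 5.36, and above WT replicates 2 to 4.

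Cd14, a co-receptor for lipopolysaccharide, read 6.47, 6.34, 5.57 and 6.46 in TRAF2/Casp8 KO, 5.73, 5.80, 5.77 and 6.60 in RIPK3 triple KO, 5.13, 6.12, 5.91 and 5.79 in the IKKβ triple KO, and 6.23, 5.24, 4.97 and 4.87 in WT. Tlr2, a receptor for bacterial lipoproteins, read 6.57, 6.78, 6.64 and 6.83 in TRAF2/Casp8 KO, 6.47, 6.61, 6.70 and 6.94 in RIPK3 triple KO, 6.65, 6.45, 6.41 and 6.16 in the IKKβ triple KO, and 6.90, 5.72, 5.96 and 5.74 in WT. All 12 KO livers exceeded WT replicates 2 to 4 in Tlr2. Tlr4, the receptor for lipopolysaccharide, ranged over 5.40 to 6.29 with overlapping groups. Both Cd14 and Tlr2 are also induced in hepatocytes by inflammatory signals, and whole liver does not separate the cell types.

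Set against WT over all 16 arrays, TRAF2/Casp8 KO livers had 1 of the 42 genes past the threshold of 0.05, Cd9, where 3.31% of all genes passed. Cd9, a tetraspanin of lipid-associated macrophages that many other cells make as well, read 9.08, 8.79, 9.22 and 9.39 in TRAF2/Casp8 KO, against 8.18, 8.26, 8.03 and 8.33 in WT. The groups did not overlap, and Cd9 rose by 0.92 on the log2 scale (1.89-fold, SE 0.19, limma adjusted p = 0.0168). The call was lost without TRAF2/Casp8 KO replicate 3 or 4 or WT replicate 3 (adjusted p up to 0.0663). Unadjusted p-values were under 0.05 for 8 genes. The median difference of the 42 genes was 0.03, against -0.01 for all genes. Groups did not overlap for Cx3cr1, Cd9 and Itgax, the integrin of CD11c, which were higher (3 of 42, where 6.12% of all genes were), and for Cd163 and Id3, which were lower (2 of 42, where 5.44% were). Beside these, all 12 neutrophil markers had lower means in TRAF2/Casp8 KO (median -0.45), as had all 8 erythroid markers (median -0.51), and none of these 20 passed; their part in the result was not tested.

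Without WT replicate 1 the same comparison had 4 genes past the threshold, all higher in TRAF2/Casp8 KO, where 3.72% of all genes passed. That array was the highest WT array in 39 of the 42 genes, so leaving it out by itself raises their differences from WT. Cd14 rose by 1.18 (SE 0.27, adjusted p = 0.0374), Tlr2 by 0.90 (SE 0.13, adjusted p = 0.00171) and Cd9 by 0.91 (SE 0.21, adjusted p = 0.0344). Apobec1, which encodes an RNA-editing enzyme active in macrophages and hepatocytes, rose by 0.72 (SE 0.17, adjusted p = 0.0388). It read 9.03, 8.58, 8.82 and 8.88 in TRAF2/Casp8 KO, 8.35, 8.60, 8.80 and 8.79 in RIPK3 triple KO, 8.93, 8.88, 8.41 and 8.26 in the IKKβ triple KO, and 8.79, 8.05, 8.01 and 8.25 in WT, so that all 12 KO livers lay above WT replicates 2 to 4. With all arrays the adjusted p was 0.194 for Cd14, 0.162 for Tlr2 and 0.168 for Apobec1. Marco differed by 0.73 (SE 0.21, adjusted p = 0.0842), Ccr2 by 0.90 (adjusted p = 0.0991) and Vsig4 by 0.42 (adjusted p = 0.0975). Of the 42 genes, 35 had higher means in TRAF2/Casp8 KO, with a median of 0.21. Groups did not overlap for 20 genes that were higher (9.81% of all genes) and 2 that were lower (9.98%). The 20 held 4 of 5 monocyte genes and 5 of 13 Kupffer cell genes, and the median difference was 0.90 over the monocyte genes and 0.20 over the Kupffer cell genes. In these 15 arrays neutrophil markers differed by a median of -0.04, lymphocyte markers by 0.44 (9 of 9 higher in TRAF2/Casp8 KO, 0 passed) and hepatocyte markers by -0.10.

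**Figure D3:**
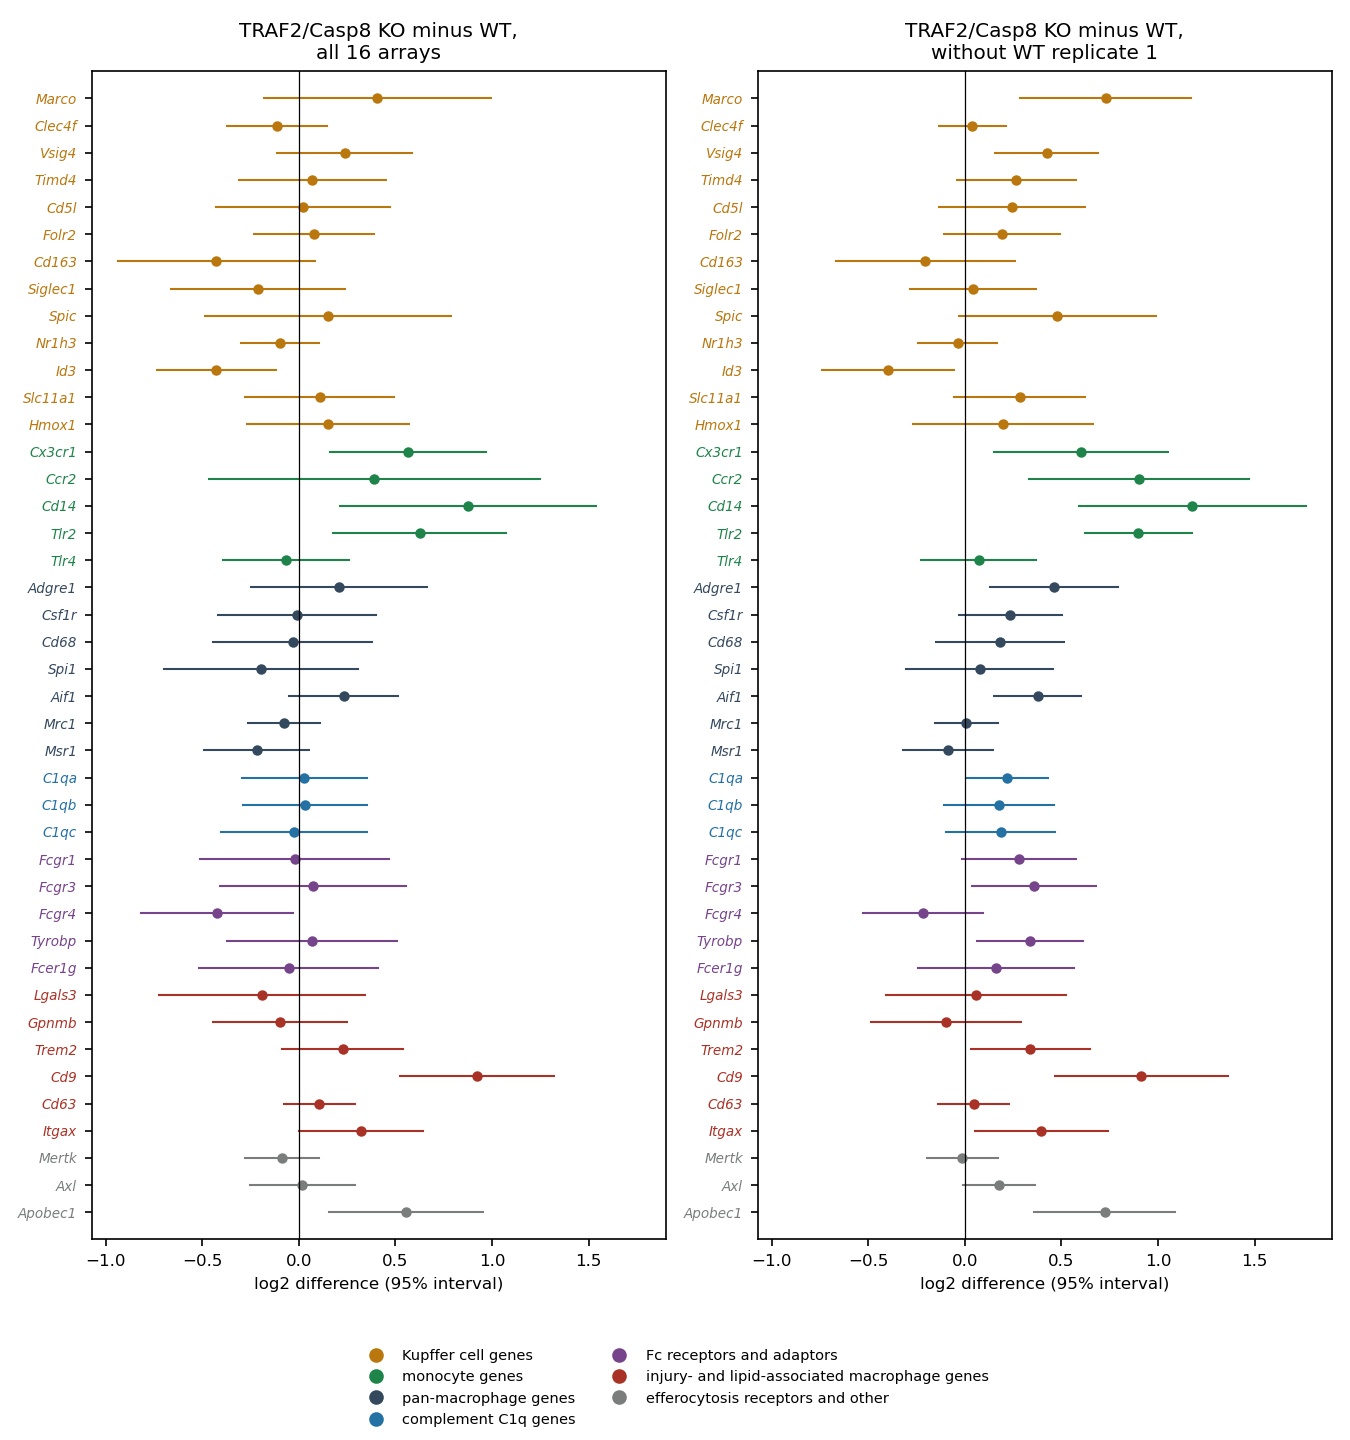
Log2 difference of TRAF2/Casp8 KO minus WT for 42 genes with 95% intervals from limma, coloured by gene group, with all 16 arrays on the left and without WT replicate 1 on the right. Cd9 and the monocyte genes Cd14, Tlr2 and Cx3cr1 (green) lie farthest to the right with all arrays, and the median of the 42 points is 0.03 with all arrays and 0.21 without WT replicate 1.

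Between RIPK3 triple KO and TRAF2/Casp8 KO, 1 of 42 genes passed, Cx3cr1, where 0.329% of all genes did. Cx3cr1 fell by 1.00 on the log2 scale (2.00-fold, SE 0.19, limma adjusted p = 0.0445), although the groups overlapped by 1 liver. Its readings of 4.44, 4.77 and 4.51 in RIPK3 triple KO lay under the lowest array median of 4.90, where low signal limits the size of the fall. The call was lost without TRAF2/Casp8 KO replicate 1, 3 or 4 or RIPK3 triple KO replicate 1, 2 or 4 (adjusted p up to 0.166), and with a model of the 2 genotypes alone (adjusted p = 0.223). The other monocyte genes had lower means as well and did not pass, with a median of -0.23 over all 5 (-0.44 without RIPK3 triple KO replicate 4). Unadjusted p-values were under 0.05 for 5 genes. Cd163, Nr1h3 and the Fc receptor gene Fcgr4 were higher without overlap (3.25% of all genes were), and Ccr2 was lower without overlap (3.62%). Cd9 read 8.06, 8.62, 8.36 and 9.07 in RIPK3 triple KO and differed from TRAF2/Casp8 KO by -0.59 (adjusted p = 0.283).

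Without RIPK3 triple KO replicate 4, none of the 42 genes passed limma's test (0.191% of all genes did). Of the 42, 7 had an unadjusted p under 0.05 and 6 had a higher mean in RIPK3 triple KO. In that comparison 11 genes were lower without overlap, where 6.8% of all genes were: Slc11a1, Hmox1, Ccr2, Csf1r, C1qb, Fcgr3, Tyrobp, Fcer1g, Cd9, Itgax and Axl. All 12 neutrophil markers had lower means there too (median -1.29, 10 without overlap), and so had all 8 erythroid markers (median -0.75). With all arrays the mean of the neutrophil markers was 7.02 (6.25 to 7.92) in RIPK3 triple KO and 7.96 (7.46 to 8.72) in TRAF2/Casp8 KO. The part of these cells in the fall of Cx3cr1 was not tested.

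Between IKKβ triple KO and TRAF2/Casp8 KO, 0 of 42 genes passed limma's test (1.02% of all genes did), and 4 had an unadjusted p under 0.05. Siglec1, Id3 and Fcgr4 were higher without overlap (2.78% of all genes were), and Vsig4 and Trem2 lower (4.69%). Fcgr4 read 6.90 to 7.56 in IKKβ triple KO and 6.60 to 6.86 in TRAF2/Casp8 KO, a difference of 0.50 (adjusted p = 0.358). Cx3cr1 differed by -0.54 (95% interval -0.95 to -0.14, adjusted p = 0.310) and Cd9, at 8.41, 8.95, 8.66 and 8.84 in IKKβ triple KO, by -0.40 (-0.80 to -0.00, adjusted p = 0.537). The median over the 42 genes was 0.00.

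**Figure D4:**
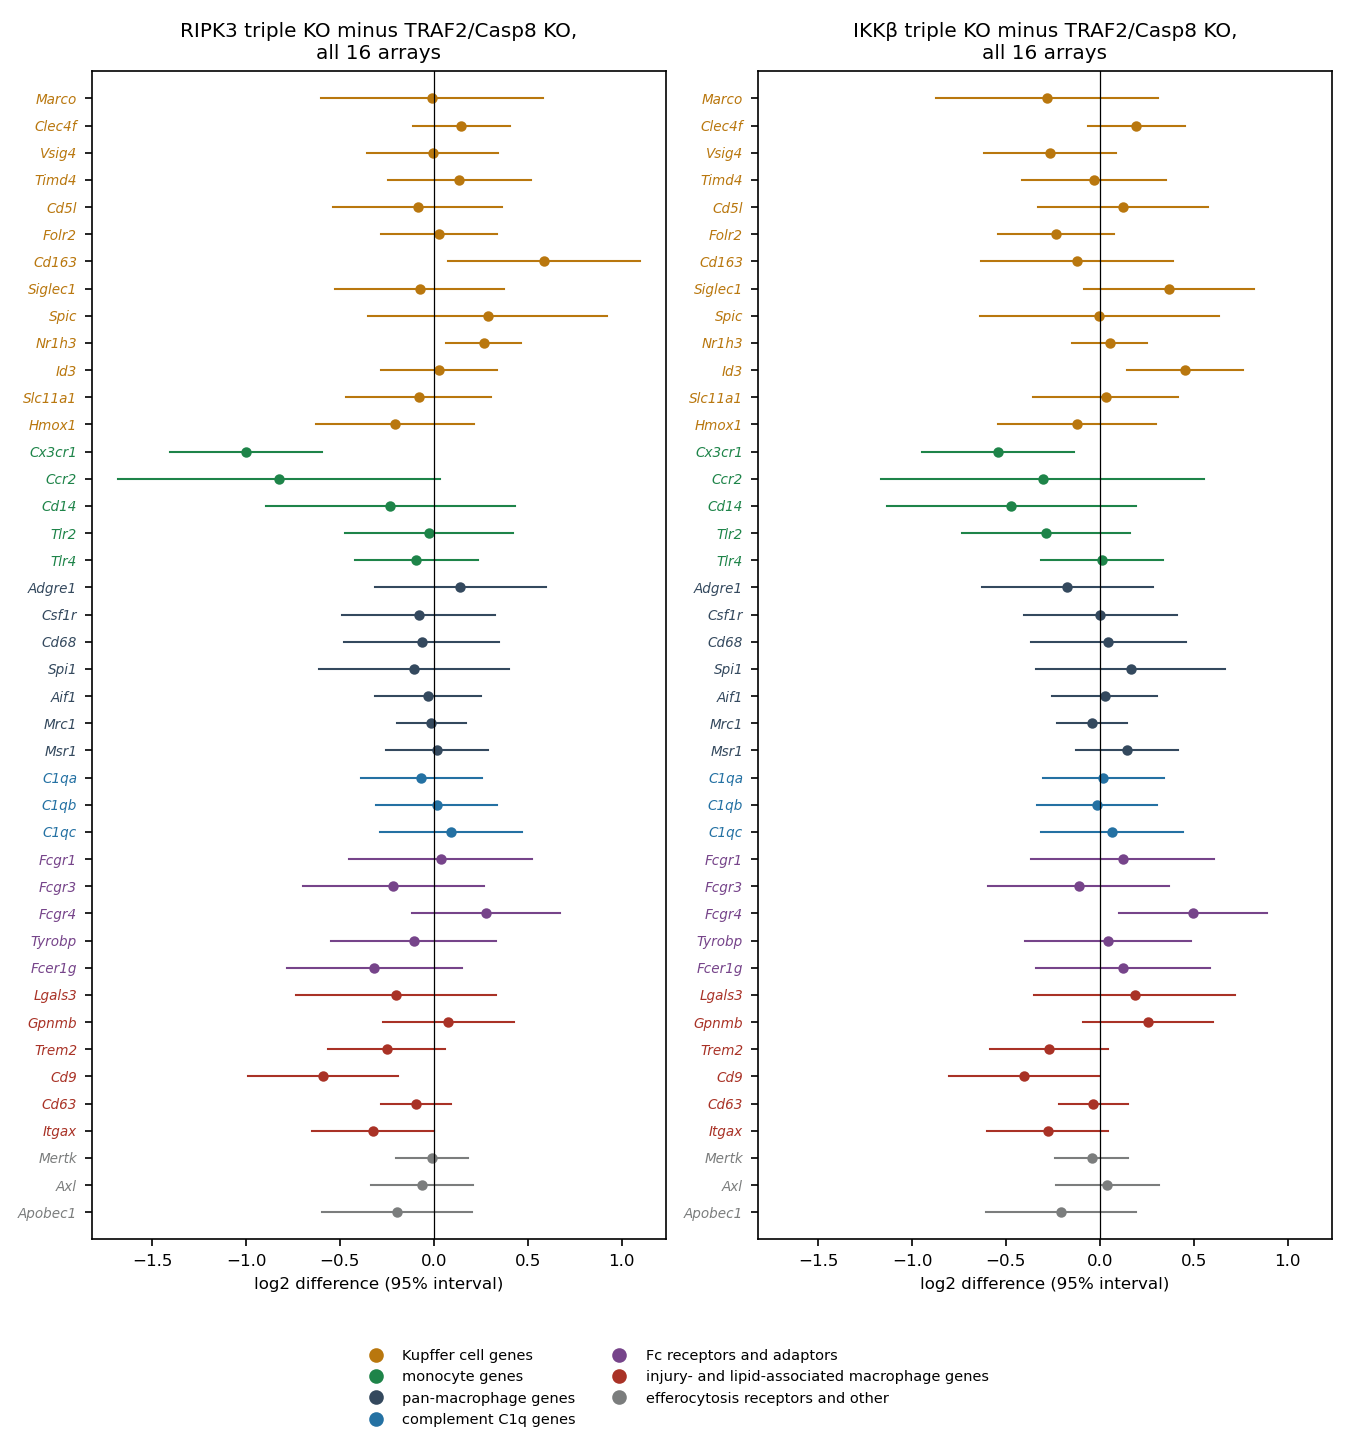
Log2 difference of each triple KO minus TRAF2/Casp8 KO for 42 genes with 95% intervals from limma over all 16 arrays, coloured by gene group; the left panel is RIPK3 triple KO and the right panel IKKβ triple KO. Cx3cr1 lies at -1.0 on the left, the one gene past the threshold, and at -0.54 on the right.

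Against WT over all arrays, neither triple KO had a gene of the 42 past the threshold. In RIPK3 triple KO 3.11% of all genes passed, and 3 of the 42 had an unadjusted p under 0.05; 0 were higher without overlap (5.04% of all genes) and 1, Id3, was lower (4.04%). In IKKβ triple KO 0.0372% of all genes passed, and 2 of the 42 had an unadjusted p under 0.05; 1, Cd9, was higher without overlap (1.49%) and 0 were lower (2.43%). IKKβ triple KO against RIPK3 triple KO gave 0 of 42 as well (2% of all genes passed), with 4 unadjusted, Siglec1 higher without overlap (3.68%) and Cd163 and Nr1h3 lower (5.33%). Without RIPK3 triple KO replicate 4, 11 genes were higher without overlap in that last comparison (6.99% of all genes), among them Spi1, Tyrobp, Fcer1g and Lgals3, and none passed limma's test, with 6 unadjusted. All 12 neutrophil markers were higher without overlap there too.

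Without WT replicate 1, which lowers the WT mean of most of the 42 genes, RIPK3 triple KO had 2 genes past the threshold (3.79% of all genes passed). Tlr2 rose by 0.87 (SE 0.13, adjusted p = 0.00225) and Adgre1 by 0.60 (SE 0.15, adjusted p = 0.0497), and 10 genes were higher without overlap (8.23%). When RIPK3 triple KO replicate 4 was left out as well, a choice made after seeing the data, Tlr2 alone passed (0.78, adjusted p = 0.00628; 3.32% of all genes passed), and Adgre1 stood at 0.46 (adjusted p = 0.0744). In IKKβ triple KO without WT replicate 1, 13 of the 42 had an unadjusted p under 0.05 and 38 a higher mean. The share of all genes is not given for either count. In the same comparison 0 of 42 passed limma's test (0.0584% of all genes did), and 20 were higher without overlap (3.86% of all genes). Tlr2 differed there by 0.61 (SE 0.13, adjusted p = 0.177) and Aif1 by 0.40 (SE 0.11, adjusted p = 0.370). Neutrophil markers were lower in RIPK3 triple KO than in WT over all arrays (12 of 12 means, median -1.24, 1 passed). These comparisons share the WT arrays, so their values are not independent of each other.

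The Kupffer cell genes were set against the monocyte genes by the difference between the mean log2 signal of the 13 and of the 5 in each liver. Cd14 and Tlr2, among the 5, are also induced in hepatocytes, so the difference does not measure the share of a cell type. The size of the difference depends on the probe sets, so it is read between livers only, and it was not tested. It was 2.40, 2.63, 2.23 and 2.14 in TRAF2/Casp8 KO, 3.01, 2.83, 2.57 and 3.06 in RIPK3 triple KO, 2.88, 2.67, 2.59 and 2.59 in the IKKβ triple KO, and 2.61, 2.88, 2.92 and 2.93 in WT. TRAF2/Casp8 KO replicates 1, 3 and 4 were below all 12 livers of the other genotypes, and replicate 2, at 2.63, lay among them. The means were 2.35 ± 0.21 in TRAF2/Casp8 KO, 2.86 ± 0.22 in RIPK3 triple KO, 2.68 ± 0.14 in IKKβ triple KO and 2.83 ± 0.15 in WT (SD, n = 4 each). The Kupffer cell mean was 8.43 (8.32 to 8.54) in TRAF2/Casp8 KO and 8.44 (8.21 to 8.97) in WT, and the monocyte mean was 6.08 (5.91 to 6.31) in TRAF2/Casp8 KO and 5.61 (5.33 to 6.36) in WT.

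**Figure D5:**
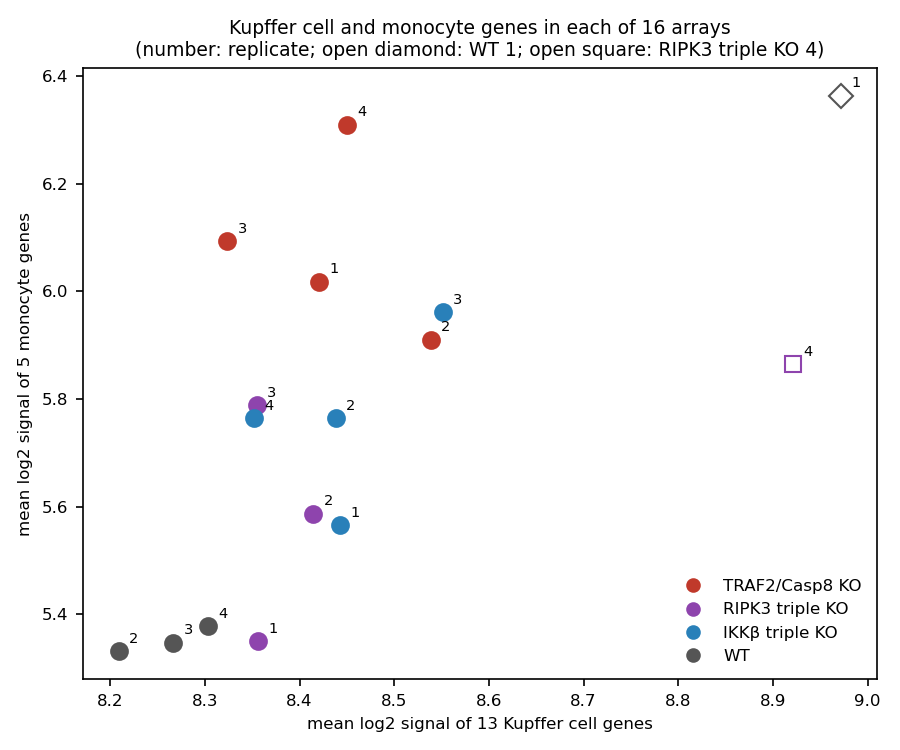
Mean log2 signal of 13 Kupffer cell genes (horizontal) and of 5 monocyte genes (vertical) in each of 16 livers, coloured by labelled genotype and numbered by replicate; the axes do not start at 0. TRAF2/Casp8 KO livers lie at 5.91 to 6.31 on the monocyte axis, WT replicates 2 to 4 at the lower left, and WT replicate 1 (open diamond) at the upper right.

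The C1q genes encode the 3 chains of the first complement component, made in liver by macrophages. Their mean was 9.72 (9.54 to 9.86) in TRAF2/Casp8 KO, 9.73 (9.58 to 10.07) in RIPK3 triple KO, 9.74 (9.68 to 9.84) in IKKβ triple KO and 9.70 (9.51 to 10.25) in WT, and 0 of 3 passed in any comparison over all arrays. The 5 Fc receptor and adaptor genes include the adaptors Tyrobp (DAP12) and Fcer1g. They averaged 7.76 (7.68 to 7.83) in TRAF2/Casp8 KO, 7.69 (7.53 to 8.07) in RIPK3 triple KO, 7.89 (7.78 to 8.06) in IKKβ triple KO and 7.83 (7.51 to 8.60) in WT. All 5 were highest among WT livers in replicate 1. Of the injury-associated genes besides Cd9, Trem2, a lipid receptor, read 4.69, 4.41, 4.49 and 4.83 in TRAF2/Casp8 KO, 3.98, 4.44, 4.39 and 4.60 in RIPK3 triple KO, 4.35, 4.18, 4.40 and 4.40 in the IKKβ triple KO, and 4.71, 4.08, 4.43 and 4.28 in WT. Gpnmb, a glycoprotein of lipid-loaded macrophages, read 3.33, 3.58, 3.76 and 3.94 in TRAF2/Casp8 KO, 3.55, 3.83, 3.79 and 3.76 in RIPK3 triple KO, 3.91, 4.13, 4.21 and 3.39 in the IKKβ triple KO, and 3.75, 3.84, 3.83 and 3.58 in WT. Signals this low limit what either gene can show. Lgals3, the galectin-3 gene, ranged over 7.30 to 8.75, with its highest value in WT replicate 1. The efferocytosis receptors Mertk (8.65 to 9.15) and Axl (8.28 to 8.93), which bind bridging proteins on dying cells, passed in no comparison.

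A list of 16 growth factor, chemokine and related genes also held Csf2ra and Csf2rb, which encode receptor chains. Of the 16, 3 rose and 0 fell in TRAF2/Casp8 KO against WT, where 3.31% of all genes passed in either direction. The 3 passed without WT replicate 1 too, by 1.49 for Ccl2, 1.36 for Cx3cl1 and 3.19 for Cxcl10 (adjusted p = 0.000636, 0.000255 and 0.000293). Ccl2, the ligand of CCR2, read 6.40, 5.79, 5.56 and 6.28 in TRAF2/Casp8 KO, 5.04, 4.81, 4.82 and 4.94 in RIPK3 triple KO, 4.53, 5.05, 4.87 and 4.50 in the IKKβ triple KO, and 4.87, 4.41, 4.52 and 4.62 in WT. The 4 TRAF2/Casp8 KO livers lay above the 12 others. Ccl2 rose by 1.40 against WT (SE 0.18, adjusted p = 0.000446), and against TRAF2/Casp8 KO it fell in both RIPK3 triple KO (-1.10, adjusted p = 0.0154) and IKKβ triple KO (-1.26, adjusted p = 0.00229). Cx3cl1, the ligand of CX3CR1, read 5.61, 5.91, 5.74 and 5.95 in TRAF2/Casp8 KO, 5.51, 5.90, 5.92 and 6.08 in RIPK3 triple KO, 5.04, 4.86, 4.53 and 4.58 in the IKKβ triple KO, and 4.74, 4.44, 4.30 and 4.59 in WT. It rose against WT in TRAF2/Casp8 KO (1.28, adjusted p = 0.000162) and in RIPK3 triple KO (1.33, adjusted p = 0.000113), and fell in IKKβ triple KO against TRAF2/Casp8 KO (-1.05, adjusted p = 0.00211). RIPK3 triple KO differed from TRAF2/Casp8 KO by 0.05 in Cx3cl1 (adjusted p = 0.935), beside -1.0 in its receptor gene Cx3cr1. Ccl2 and Cx3cl1 lay under the lowest array median of 4.90 in all WT livers and in some triple KO livers. Low signal there limits the size of these differences.

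Cxcl10, an interferon-induced chemokine for T cells and monocytes, rose in TRAF2/Casp8 KO by 3.02, RIPK3 triple KO by 2.23 and IKKβ triple KO by 2.66, each against WT (adjusted p = 0.000171, 0.00265 and 0.00951). The macrophage growth factor gene Csf1 differed from WT in RIPK3 triple KO by 0.31 (adjusted p = 0.136) and rose by 0.40 without WT replicate 1 (adjusted p = 0.0293). Against the same 3.31% of all genes, 1 of 13 macrophage transcription factors fell in TRAF2/Casp8 KO against WT, Rxra (-0.47, adjusted p = 0.00420, and -0.49 without WT replicate 1), a partner of nuclear receptors that hepatocytes express as well. Of 16 activation genes 1 fell, Cd274, which encodes the checkpoint ligand PD-L1 (-0.56, adjusted p = 0.0465; no longer past the threshold without WT replicate 1). Of 13 lysosome and iron genes 1 fell, the biliverdin reductase gene Blvrb (-0.35, adjusted p = 0.0465, and -0.40 without WT replicate 1). Without WT replicate 1, where 3.72% of all genes passed, 2 of these 13 rose as well, the cathepsin S gene Ctss (0.41, adjusted p = 0.0369) and Lamp1, which encodes a lysosomal membrane protein (0.30, adjusted p = 0.0378). In RIPK3 triple KO against WT over all arrays Lamp1 rose (0.35, adjusted p = 0.0147) and Blvrb fell (-0.42, adjusted p = 0.0181), where 3.11% of all genes passed.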

How the data were processed

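RNA of whole liver was measured on one-colour arrays (16 mice, 4 per genotype; 100 ng of RNA each, integrity above 8.0, per the labels' protocols). The authors deposited log2 values made with RMA, per the submitters' processing notes; its version is not given in the sources used here. Of 35556 probe sets, 21218 carry 1 gene symbol. No further normalisation or filter was applied. The test was limma 3.58.1, run under R 4.3.3 as 1 model of 4 genotypes (lmFit, eBayes, two-sided), with Benjamini-Hochberg adjustment over all probe sets and a threshold of 0.05, and the procedure was tested on simulated data. Every adjusted p is from this model or, where an array was left out or an alternative is named, from the refit with that change. A group counts as not overlapping where all its arrays lie above or below all of the other's. Counts by unadjusted p or by higher or lower means are given without the share of all genes, so they are not read against the background. Values in every array were given for genes of the set that passed in any of the 6 comparisons and for 12 fixed genes, and others mostly by range. Genes outside the set could be named where they passed, at most 4 per list and comparison, beside the targeted genes. The gene set and the lists were chosen with earlier results of these data known. Replicates are separate mice with no stated litter or batch; same-numbered arrays were not paired (correlations of deviations between -0.102 and 0.159, over 0.1 in 4 of 24 pairs). Their number limits the precision. Promoters are from RefSeq. Alternatives were leaving out each array, an intensity trend, the 2 groups alone, a filter on the dimmest of 3 parts, quantile normalisation and centring. Further alternatives were mean probe sets, a replicate block and the letter in the array name as a random block. Plots used Python 3.11.15 and matplotlib 3.10.9.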

Additional observations from a re-analysis of the deposited data

Results flagged for a closer look

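In 24 of 168 gene-by-genotype groups of 4 livers, 1 liver lay farther from the others than the 95% limit of Dixon's test allows; at 1 in 20, 8.4 groups would be expected by chance, and genes that move together in 1 liver are not independent. WT replicate 1 was the high liver in 16 of them: Marco (10.57), Clec4f (10.52), Cd5l (10.29), Cd163 (6.18), Spic (8.40), Ccr2 (7.07), Adgre1 (9.39), Csf1r (10.54), C1qa (9.96), C1qb (10.73), C1qc (10.05), Fcgr3 (8.72), Tyrobp (8.86), Fcer1g (10.21), Lgals3 (8.75) and Axl (8.93). RIPK3 triple KO replicate 4 was the high liver in 4: Slc11a1 (8.86), Hmox1 (10.48), Cd14 (6.60) and C1qb (10.82). The remaining 4 were Cd14 in TRAF2/Casp8 KO replicate 3, the lowest at 5.57, Siglec1 in RIPK3 triple KO replicate 2, the lowest at 7.22, Vsig4 in IKKβ triple KO replicate 4, the lowest at 9.42, and Siglec1 in IKKβ triple KO replicate 3, the highest at 8.24.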

How the results depend on the processing

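The count of genes past the threshold in TRAF2/Casp8 KO against WT was 1 under every alternative except leaving out arrays, where it ran from 0 to 4 (Cd9 from 0.83 to 1.03, adjusted p 0.0115 to 0.0663). Between RIPK3 triple KO and TRAF2/Casp8 KO it ran from 0 to 1 (Cx3cr1 from -1.20 to -0.89, adjusted p 0.00650 to 0.166). It was 0 with only the 2 groups compared (adjusted p = 0.223) and 0 with the replicate block (adjusted p = 0.0749), and the block changed no other call. In RIPK3 triple KO against WT it ran from 0 to 2 over the arrays left out, and was 1 without WT replicate 1 and RIPK3 triple KO replicate 4 together, an alternative chosen after seeing the data. The 3 other comparisons gave 0 throughout. Leaving out an array leaves fewer samples; for the other changes the cause was not tested. Centring moved the differences by at most 0.056, which can turn the sign of genes that differ by less; Cd9 and Cx3cr1 kept their direction under every alternative. The Kupffer minus monocyte difference ran from 2.26 to 2.42 in TRAF2/Casp8 KO, 2.80 to 2.96 in RIPK3 triple KO, 2.62 to 2.71 in IKKβ triple KO and 2.80 to 2.91 in WT with 1 array left out. If the array names give plate positions, position and genotype cannot be told apart, and a term for the number in the names could not be fitted. Low signal limits Gpnmb and Trem2, and in part of the arrays Cx3cr1, Cd163, Itgax, Ccr2 and Cd14.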

Other observations

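Siglecf, which marks eosinophils and alveolar macrophages in mouse, rose in TRAF2/Casp8 KO livers (8.69, 8.04, 8.53 and 8.63) and in RIPK3 triple KO livers (8.12, 8.78, 8.84 and 8.92), against 5.21, 4.83, 5.47 and 5.25 in WT; IKKβ triple KO livers read 5.90, 5.67, 5.84 and 6.01. The difference from WT was 3.29 in TRAF2/Casp8 KO (SE 0.19, limma adjusted p = 1.93e-07; 3.30 without WT replicate 1) and 0.66 in IKKβ triple KO (adjusted p = 0.520). The genotypes with high Siglecf share a number in the array names, and those with low Siglecf share another, as for Cx3cl1. Genotype and this number cannot be told apart. Of 6 eosinophil markers measured, the granule genes Prg2 and Epx went the other way in RIPK3 triple KO against WT, where 3.11% of all genes passed. They differed by -1.45 and -1.36 (adjusted p = 0.0227 and 0.00252), and without WT replicate 1 by -1.18 and -1.24 (adjusted p = 0.0410 and 0.00691). Epx read 2.82 to 4.71, under the lowest array median of 4.90 in every liver, so low signal limits it. Of 9 dendritic cell markers, only Siglech, a lectin of plasmacytoid dendritic cells and microglia, passed in TRAF2/Casp8 KO against WT, where 3.31% of all genes did. It rose by 0.87 (adjusted p = 0.0191), and by 0.81 without WT replicate 1 (adjusted p = 0.0462). It read 6.02, 5.55, 5.50 and 5.42 in TRAF2/Casp8 KO and 5.33, 5.43, 5.79 and 5.26 in RIPK3 triple KO. In the IKKβ triple KO Siglech read 5.42, 5.70, 5.24 and 4.81, and in WT 4.56, 4.82, 4.96 and 4.65. WT replicates 1, 2 and 4 lay under the lowest array median of 4.90, so low signal limits it too. Of the 9 stellate cell and pericyte markers, only Rgs5 passed in RIPK3 triple KO against WT, where 3.11% of all genes did. It rose by 1.16 (adjusted p = 0.0132), and by 0.98 without WT replicate 1 (adjusted p = 0.0248).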
